A study of Mus musculus with 96 samples.

Results

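The integrated stress response and the unfolded protein response were followed through 10 genes: Atf4, Ddit3, Atf3, Trib3, Asns, Chac1, Sesn2, Hspa5, Xbp1 and Herpud1. They were taken from the array by gene symbol, and all 10 were found among 19505 measured genes. Ddit3 was read by 2 transcript clusters, which were averaged, and each other gene by 1. Expression was measured on Affymetrix mouse Clariom S arrays in striatum, liver, pancreas and visceral (gonadal) adipose tissue of adult C57BL/6JOlaHsd mice, in a study of the metabolic side effects of antipsychotic drugs. The groups were risperidone at 1 mg/kg, olanzapine at 3.5 mg/kg and vehicle, injected under the skin once a day for 28 days, and all groups received the same solvent of saline with DMSO and Tween 20. Each group held 4 males and 4 females on standard chow, and tissues were taken 1 h after the final dose, which gave 24 mice and 96 arrays. Risperidone and olanzapine are second-generation antipsychotics that block dopamine and serotonin receptors. Both drugs were set against the same 8 vehicle mice, so the 2 comparisons in a tissue are not independent of each other.

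In the integrated stress response, kinases that sense amino acid shortage, misfolded protein, viral RNA or heme shortage phosphorylate the translation factor eIF2, which slows protein synthesis while translation of the Atf4 mRNA increases. ATF4 then switches on genes for amino acid synthesis and transport, for antioxidant defence and, under lasting stress, for cell death. The unfolded protein response of the endoplasmic reticulum shares the kinase PERK with this pathway and adds the sensors ATF6 and IRE1. IRE1 splices the Xbp1 mRNA, and ATF6 and spliced XBP1 raise chaperones and degradation factors. Liver, pancreas and fat are secretory tissues in which both responses are well studied. An array measures mRNA, so the translation of Atf4, the phosphorylation of eIF2 and the splicing of Xbp1 are not seen here.

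The stretches of promoter below show the DNA letters through which these responses are known to act, so that the measured genes can be read beside the letters they carry. They come from RefSeq on the mouse build GRCm38.p6, from windows of 250 bases before to 50 bases after each gene's start, and all 10 genes had a window. Both strands were searched for the C/EBP-ATF response element bound by ATF4 with its partners (TGATGNAA), for an ER stress response element (CCAAT, any 9 bases, CCACG) and a second one (ATTGG, any base, CCACG), both used by ATF6, and for the letters TGACGTGG used by ATF6 and XBP1. Sequences are printed along the gene's own strand, and capitals mark the matched letters.
Atf3: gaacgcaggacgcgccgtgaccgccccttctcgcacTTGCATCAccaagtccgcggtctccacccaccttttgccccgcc
Chac1: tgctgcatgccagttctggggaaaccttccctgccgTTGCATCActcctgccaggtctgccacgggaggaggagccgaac
Asns: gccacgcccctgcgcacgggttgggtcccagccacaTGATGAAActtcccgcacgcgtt
Trib3: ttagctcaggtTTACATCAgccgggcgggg
Hspa5: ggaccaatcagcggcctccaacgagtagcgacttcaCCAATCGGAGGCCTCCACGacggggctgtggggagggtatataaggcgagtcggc
Herpud1: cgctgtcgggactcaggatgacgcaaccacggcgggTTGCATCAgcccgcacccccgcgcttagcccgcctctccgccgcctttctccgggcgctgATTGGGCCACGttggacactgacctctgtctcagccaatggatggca
The stretches lie at chr1:191183400-191183479 (Atf3, minus strand), chr2:119351013-119351092 (Chac1, plus strand), chr6:7693210-7693268 (Asns, minus strand), chr2:152344028-152344057 (Trib3, minus strand), chr2:34771989-34772079 (Hspa5, plus strand) and chr8:94386281-94386423 (Herpud1, plus strand). All lie upstream of the gene's start except that of Trib3, which covers bases 3 to 32 after it.

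TGATGNAA was present in the windows of 5 of the 10 genes (Atf3, Trib3, Asns, Chac1 and Herpud1), against 3.97% of all 32851 windows. The ER stress response element was found in 1 gene, Hspa5, and in 0.119% of all windows. The second ER stress element was found in 1 gene, Herpud1, and in 0.037% of windows. TGACGTGG was in 0.676% of windows and in 0 of the 10. The windows of Atf4, Ddit3, Sesn2 and Xbp1 held none of these letters. Herpud1 was therefore the only gene of the 10 with matches to an ATF4 and an ER stress element in its window.

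Some libraries stood apart. The adipose results that rest on them are given with and without them, and single distant mice in other tissues are named beside the gene. In adipose tissue, a mean over 6 markers of reproductive tract epithelium reached 11.03, 11.11 and 10.48 in risperidone males 4, 5 and 23, and 10.76 and 8.86 in olanzapine male 9 and olanzapine female 25. The vehicle mice lay between 6.72 and 7.02 on this log2 scale. In risperidone males 4, 5 and 23 the mean of 8 adipocyte markers was 12.07, 11.34 and 12.02, below the lowest vehicle mouse at 13.94. In olanzapine male 9 it was 13.36, and in olanzapine female 25 it was 15.39, within the vehicle range. These 5 mice were left out together in an alternative chosen after seeing the data, which kept 5 risperidone, 6 olanzapine and 8 vehicle mice.

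In the striatum, a mean over 8 markers of striatal projection neurons was 14.87 to 15.87 in risperidone mice and 11.82 to 14.78 in olanzapine mice, which did not overlap, against 13.78 to 15.82 in vehicle mice. The pancreas samples varied most, with a median correlation to the other arrays of the tissue of 0.647 to 0.847, and the mean of 9 acinar markers ran between 13.85 and 17.62 in risperidone, 12.39 and 17.57 in olanzapine and 14.09 and 17.64 in vehicle mice. The corresponding correlations were 0.797 to 0.954 in adipose tissue, 0.971 to 0.979 in liver and 0.977 to 0.988 in striatum. In bulk tissue, fewer cells of a type and less RNA per cell cannot be told apart.

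No gene of the 10 passed an adjusted p of 0.05 against vehicle in any tissue or with either drug (limma, Benjamini-Hochberg over 19505 genes). The share of all genes called was itself 0% in striatum, pancreas and adipose tissue with each drug, 0.041% in liver with risperidone and 0.0205% in liver with olanzapine. Atf4 in olanzapine livers came nearest, with an adjusted p of 0.350. At an unadjusted p under 0.05, the liver held 2 of the 10 genes with risperidone and 2 with olanzapine, where 5.4% and 6.56% of all genes lay below that value. Adipose tissue held 2 with risperidone and 1 with olanzapine (9.03% and 5.46% of all genes), the striatum 1 and 0 (5.4% and 10.5%), and the pancreas 0 and 0 (3.24% and 8.24%).

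**Figure D1:**
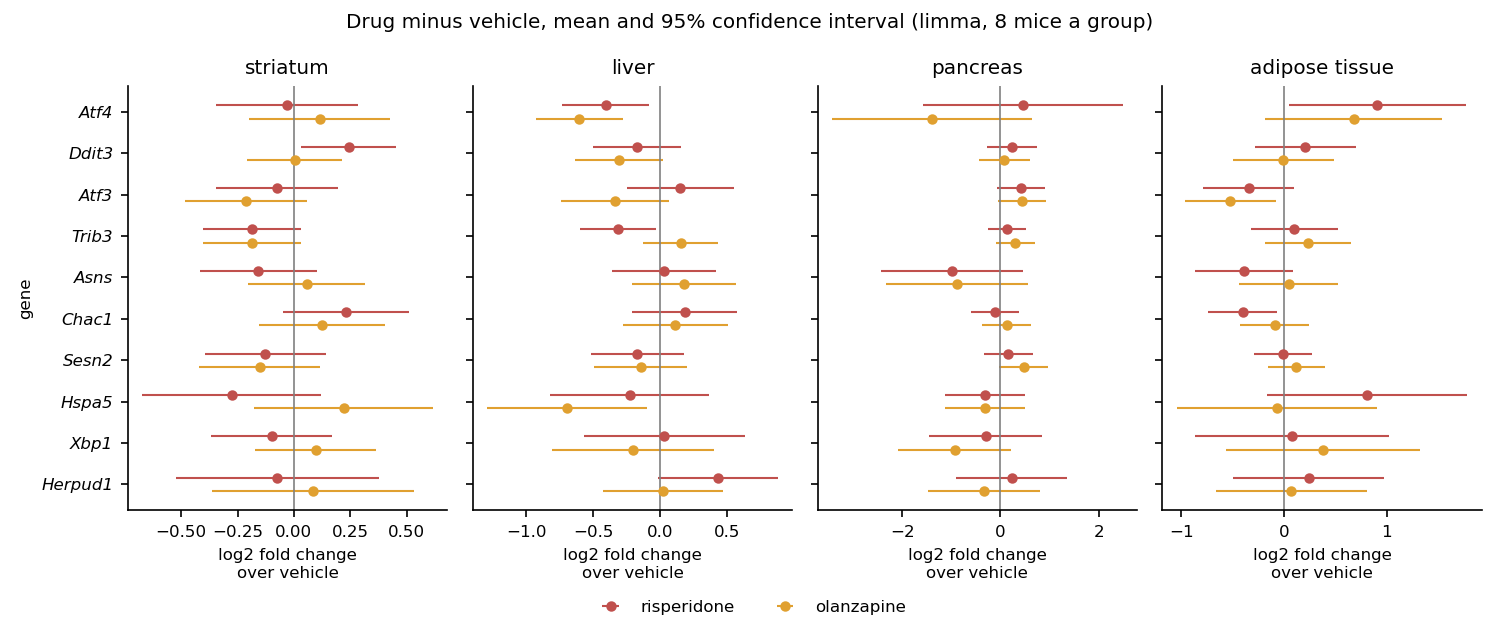
Log2 fold change of each gene over vehicle (horizontal axis) in the 4 tissues, for risperidone (red, upper point) and olanzapine (yellow, lower point). Points are limma estimates and lines their 95% confidence intervals, with 8 mice a group. Liver Atf4 lies left of 0 with both drugs (-0.41 and -0.61), and the horizontal scales differ, with pancreas intervals the widest.

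In the liver the transcription factor at the head of the pathway, Atf4 (chr15:80255184-80257545), had lower values under both drugs, although neither difference passed the adjusted threshold. Its lowest, median and highest log2 values were 12.00, 12.21 and 12.61 in risperidone livers, 11.22, 12.11 and 12.54 in olanzapine livers, and 12.40, 12.60 and 13.06 in vehicle livers. In each drug group 5 of 8 mice lay below every vehicle mouse, and the others overlapped with the lower part of the vehicle range. Under olanzapine all 8 mice lay at or below the vehicle median.

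The difference from vehicle was -0.41 ± 0.16 (SE) for risperidone (adjusted p = 0.753) and -0.61 ± 0.16 for olanzapine (adjusted p = 0.350). Males averaged 12.31 with risperidone and 12.07 with olanzapine, against 12.81 in vehicle males, and all drug-treated males lay below all vehicle males. Females averaged 12.21 with risperidone and 12.06 with olanzapine, against 12.53 in vehicle females, with overlap between the groups. With each of the 24 mice left out in turn, the olanzapine difference stayed between -0.69 and -0.49, its unadjusted p stayed under 0.05 and its adjusted p ran between 0.189 and 0.560.

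Ddit3 (chr10:127290793-127296291) encodes CHOP, a factor induced by ATF4 that promotes cell death under lasting stress. In liver its values were 6.93, 6.98 and 7.58 (lowest, median and highest) with risperidone, 6.64, 7.02 and 7.38 with olanzapine, and 7.00, 7.32 and 8.18 with vehicle. With risperidone 4 mice and with olanzapine 3 mice lay below every vehicle mouse, and vehicle female 20 stood far above the rest at 8.18. The differences were -0.17 ± 0.16 with risperidone (adjusted p = 0.996) and -0.31 ± 0.16 with olanzapine (adjusted p = 0.782), and without vehicle female 20 they were -0.06 and -0.19. The 2 transcript clusters of Ddit3 did not give equal values: they differed from vehicle by -0.35 and 0.00 with risperidone and by -0.41 and -0.21 with olanzapine.

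Trib3 (chr2:152337425-152344060), a pseudokinase that ATF4 induces and that holds back ATF4 and AKT, had a liver median below that of vehicle with risperidone and above it with olanzapine. Its lowest, median and highest values were 5.78, 6.28 and 6.69 in risperidone livers, 6.44, 6.70 and 6.95 in olanzapine livers, and 6.02, 6.56 and 6.90 in vehicle livers. With risperidone 3 mice lay below every vehicle mouse, and with olanzapine 1 mouse lay above. Neither difference from vehicle passed the test (-0.32 ± 0.14, adjusted p = 0.841 for risperidone, and 0.15 ± 0.14, adjusted p = 0.913 for olanzapine). The contrast of olanzapine minus risperidone was 0.47 ± 0.14, with an adjusted p of 0.286.

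Hspa5 (chr2:34772090-34776529) encodes BiP, the main chaperone of the endoplasmic reticulum, whose rise is a standard reading of the unfolded protein response. In liver it was 15.40, 16.41 and 17.07 with risperidone, 14.96, 15.69 and 17.35 with olanzapine, and 15.90, 16.33 and 18.01 with vehicle, again as lowest, median and highest. With olanzapine 6 of 8 mice lay below every vehicle mouse, while olanzapine male 9 stood above the rest of its group at 17.35. The olanzapine difference was -0.70 ± 0.29 (adjusted p = 0.682), or -0.91 without male 9 (adjusted p = 0.292), and the risperidone difference -0.23 ± 0.29 (adjusted p = 0.998). Olanzapine males averaged 16.16 and vehicle males 16.47. Olanzapine females averaged 15.5 and vehicle females 16.6, and all olanzapine females lay below all vehicle females.

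The other liver genes overlapped with vehicle over most of their range. They were Atf3, a stress-induced repressor of the same family, Asns, which makes asparagine, Chac1, which degrades glutathione, Sesn2, which restrains mTORC1 when leucine is low, Xbp1 and Herpud1, a factor of endoplasmic reticulum degradation. Their differences from vehicle lay between -0.17 (Sesn2) and 0.43 (Herpud1, adjusted p = 0.931) with risperidone, and between -0.34 (Atf3, adjusted p = 0.825) and 0.18 (Asns) with olanzapine. Sesn2 was dim in every tissue: 12.4% of all genes had a lower mean in liver, 9.4% in pancreas, 5.1% in striatum and 0.4% in adipose tissue. Herpud1 (chr8:94386429-94395371) was 16.16, 16.58 and 17.13 in risperidone livers and 15.28, 16.48 and 16.75 in vehicle livers, with the risperidone group starting well inside the vehicle range. The mean over 8 hepatocyte markers was 18.7 to 19.0 in each group.

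**Figure D2:**
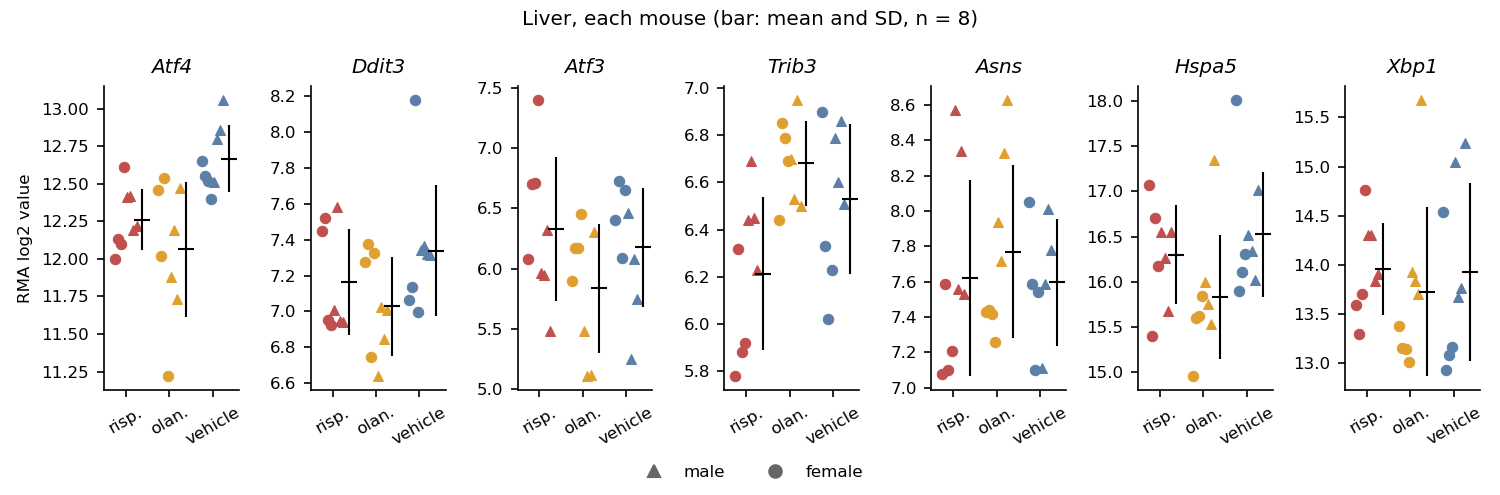
RMA log2 value (vertical axis, a separate scale for each gene) of 7 genes in every liver of the risperidone, olanzapine and vehicle groups, with triangles for males and circles for females. The bar is the mean and SD of 8 mice. In the Atf4 panel 5 risperidone and 5 olanzapine mice lie below the lowest vehicle mouse, at 12.40.

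Genes of the wider pathway in the liver were read from lists of 93 measured genes in all, and 0 of the 93 passed against vehicle with either drug. With olanzapine all 16 chaperones and folding enzymes of the endoplasmic reticulum had a difference below 0, 4 of them at an unadjusted p under 0.05, with a list median of -0.31 against 0.01 over all genes. All 9 measured genes of the heat shock list were likewise below 0, 3 of them at p under 0.05, with a median of -0.36. With risperidone 2 of the 16 chaperones were above 0 and their median was -0.11.

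The liver genes with the lowest p, none of which passed, were for olanzapine the tRNA export factor Xpot (-0.46), the oxidase Ero1b (-0.56) and the chaperone Hspa1b (-0.63). For risperidone they were the amino acid transporter Slc7a5 (-0.53), the transcription factor Atf5 (-0.72) and the translocon subunit Sec61b (-0.44).

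In adipose tissue the picture depended on the 5 mice with epithelial markers. Atf4 was 11.22, 13.05 and 14.40 (lowest, median and highest) with risperidone, 11.80, 12.43 and 14.08 with olanzapine, and 10.95, 11.97 and 13.14 with vehicle. With risperidone 4 mice and with olanzapine 2 mice lay above every vehicle mouse. Of these, the values of 14.40, 13.59 and 13.68 with risperidone and of 13.27 and 14.08 with olanzapine belonged to the 5 mice. The differences from vehicle were 0.91 ± 0.42 with risperidone (adjusted p = 0.538) and 0.68 ± 0.42 with olanzapine (adjusted p = 0.783). Without the 5 mice they were 0.20 ± 0.36 and 0.33 ± 0.34 (adjusted p = 0.937 for olanzapine, and 1 for risperidone). The part of the other cells in the Atf4 level was not tested.

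Hspa5 had the same split in fat. Its lowest, median and highest values were 10.30, 11.33 and 14.26 with risperidone, 10.17, 10.77 and 12.85 with olanzapine, and 10.70, 10.99 and 11.79 with vehicle. The values above every vehicle mouse were 12.61, 14.09 and 14.26 in the 3 risperidone males with epithelial markers and 12.85 in olanzapine male 9. Olanzapine female 25, the remaining mouse of the 5, had the lowest Hspa5 of its group at 10.17. The risperidone difference was 0.81 ± 0.47 (adjusted p = 0.596) over all mice and -0.37 ± 0.19 without the 5, where it had the other sign and did not pass either.

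Asns (chr6:7675165-7693209) was low in the males of that set. It was 9.33, 10.69 and 11.79 with risperidone, 10.10, 11.14 and 11.79 with olanzapine, and 10.30, 11.17 and 11.35 with vehicle. Both ends of the risperidone range lay outside the vehicle range, with 3 mice above and 3 below every vehicle mouse. The 3 below were the males with epithelial markers, at 9.33, 9.94 and 9.54. The risperidone difference of -0.39 ± 0.23 over all mice was 0.06 ± 0.21 without the 5.

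Chac1 (chr2:119351242-119354326) was 6.87, 7.22 and 7.51 in risperidone fat and 7.26, 7.52 and 7.96 in vehicle fat, with 4 risperidone mice below every vehicle mouse. Its difference was -0.40 ± 0.16 (adjusted p = 0.500), and -0.27 ± 0.17 without the 5 mice. Atf3 (chr1:191170296-191183333) was 7.45, 7.95 and 8.51 in olanzapine fat and 7.87, 8.36 and 9.09 in vehicle fat, with 3 olanzapine mice below every vehicle mouse. The olanzapine difference of Atf3 was -0.53 ± 0.21 (adjusted p = 0.783), and it was of similar size without the 5 mice, at -0.48 ± 0.20 (adjusted p = 0.937).

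**Figure D3:**
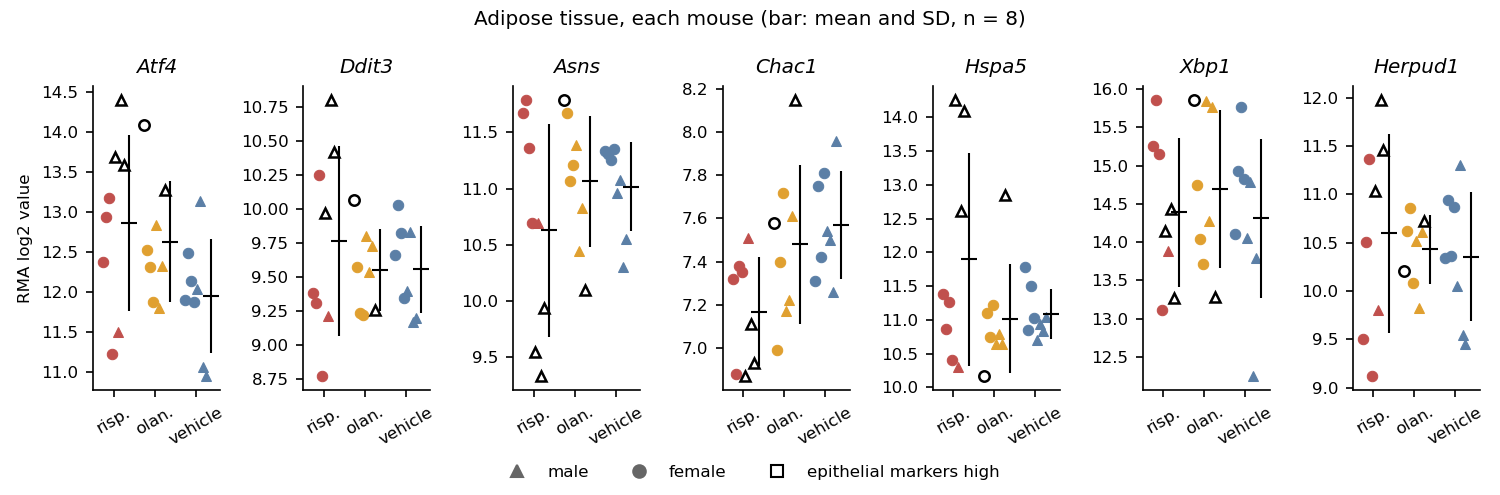
RMA log2 value (vertical axis, a separate scale for each gene) of 7 genes in adipose tissue of every mouse of the risperidone, olanzapine and vehicle groups. Triangles are males, circles females, open symbols the 5 mice with high epithelial markers, and bars the mean and SD of 8 mice. The open triangles hold the Hspa5 values of 12.61 and above and the Asns values between 9.33 and 10.10.

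The chaperones of the endoplasmic reticulum had values that changed in the same way when the 5 mice were left out. With risperidone all 16 endoplasmic reticulum chaperones and folding enzymes had a difference above 0 in fat, 8 of them at an unadjusted p under 0.05, with a median of 0.88 against -0.04 over all genes, but 0 passed the adjusted threshold. Without the 5 mice 5 of 16 were above 0, 0 had a p under 0.05, and the median was -0.10 against 0.01 over all genes. Dnajb9, a BiP co-chaperone, differed by 1.27 ± 0.45 (adjusted p = 0.472) over all mice and by 0.34 ± 0.39 without the 5. Calr, the calcium-binding chaperone calreticulin, had 1.24 and -0.29 in the same order. Sdf2l1, a resident factor of this compartment, had 0.85 and 0.12, and Hyou1, a large chaperone of the same compartment, had 0.59 and 0.12. With olanzapine 13 of 16 chaperones were above 0 in both sets of mice, with medians of 0.40 over all mice and 0.20 without the 5.

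**Figure D4:**
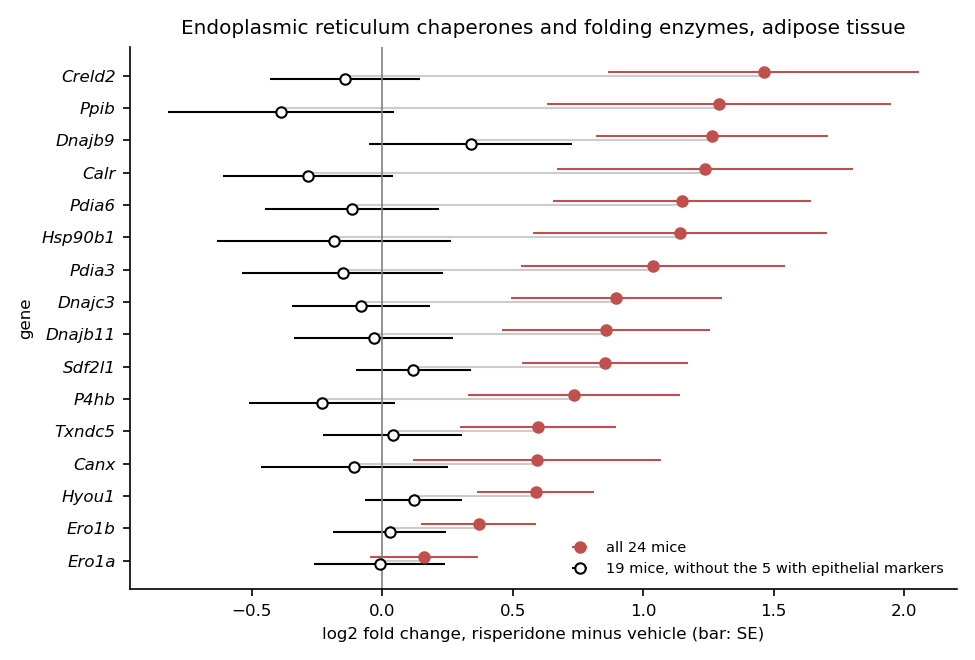
Log2 fold change of 16 endoplasmic reticulum chaperones and folding enzymes in adipose tissue, risperidone minus vehicle (horizontal axis), from all 24 mice (red) and from the 19 mice without high epithelial markers (open). Bars are SE. The list median is 0.88 with all mice and -0.10 with 19.

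In the olanzapine fat the list genes with the lowest p, which did not pass, were the ubiquitin ligase Syvn1 (0.38), the eIF2 phosphatase subunit Ppp1r15b (0.47) and the serine enzyme Shmt2 (0.98). Of the 93 list genes 0 passed in fat with either drug, with or without the 5 mice.

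Against vehicle, Ddit3 was the only one of the 10 genes with an unadjusted p under 0.05 in the striatum. It was 9.29, 9.58 and 9.75 (lowest, median and highest) with risperidone, 9.06, 9.30 and 9.52 with olanzapine, and 9.09, 9.33 and 9.48 with vehicle. With risperidone 5 of 8 mice lay above every vehicle mouse, while the olanzapine and vehicle groups overlapped almost fully. The risperidone difference was 0.24 ± 0.10 (adjusted p = 0.913), the mean of 0.15 and 0.34 in its 2 clusters. Their unadjusted p was 0.235 and 0.0158 in that order (limma). The cluster with 0.34 carries an identifier that marks it as unmapped. The other 9 genes differed by -0.28 (Hspa5) to 0.23 (Chac1) with risperidone and, with Ddit3 at 0.00, all 10 by -0.21 (Atf3) to 0.22 (Hspa5) with olanzapine.

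Between the drugs, Hspa5 came nearest to the threshold among the 10 genes in the striatum. Its values were 13.75, 15.08 and 15.47 with olanzapine, 14.09, 14.45 and 15.34 with risperidone, and 14.14, 14.87 and 15.18 with vehicle. Olanzapine male 9 at 13.75 and risperidone female 23 at 15.34 lay far from the other mice of their groups. Olanzapine minus risperidone was 0.50 ± 0.19 (adjusted p = 0.144), in a contrast that called 4.86% of all genes and 0 of the 10. Ddit3 had -0.24 (adjusted p = 0.193) in the same contrast. Hspa5 passed with weighted arrays (0.64, adjusted p = 0.00764) and when either of those 2 mice was left out. The share of all genes called in those fits is not given here.

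Of the 93 list genes, 6 passed in that contrast, or 6.45% against 4.86% of all genes. The count ran between 2 and 12 with a mouse left out and was 16 with array weights. The share of all genes called in those other fits is not given here, so these counts have no background beside them. Slc7a3, a transporter of cationic amino acids, was 9.69, 10.73 and 11.12 with olanzapine against 8.65, 9.03 and 9.88 with risperidone (1.41 ± 0.24, adjusted p = 0.0103), and the groups overlapped only at their edges. Wars, the tryptophan tRNA synthetase, rose by 0.47 (adjusted p = 0.0238), as did the chaperones and folding enzymes Hyou1 (0.35, adjusted p = 0.0315), Pdia6 (0.50, adjusted p = 0.0382) and Ero1b (0.71, adjusted p = 0.0427). Atf6, a sensor of the unfolded protein response, fell by 0.89 (adjusted p = 0.0124), with 11.81, 12.10 and 12.61 in olanzapine mice against 12.56, 12.99 and 13.37 in risperidone mice. The projection neuron markers did not overlap between these 2 groups of mice, as given above. The mean of 8 choroid plexus markers was 7.40 to 9.59 (median 7.63) with olanzapine against 7.54 to 11.02 (median 10.17) with risperidone, and that of 6 microglia markers 9.22 to 9.57 (median 9.41) against 9.50 to 9.89 (median 9.71). The part of these cells in the differences was not tested. Against vehicle 0 of the 93 passed, and the lowest p belonged to Slc7a3 with olanzapine (0.92, adjusted p = 0.268), the disulfide isomerases Pdia6 (0.49) and Pdia3 (0.41), and with risperidone to Wars (-0.30), Ppp1r15b (0.29) and Hyou1 (-0.24).

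In the pancreas the spread within groups was wide. Atf4 ran between 8.35 and 14.25 (median 11.18) with risperidone, 6.35 and 13.87 (median 8.75) with olanzapine, and 6.58 and 13.48 (median 11.15) with vehicle. The 3 groups overlapped, and the differences of 0.46 ± 0.99 and -1.39 ± 0.99 (adjusted p = 0.724 for olanzapine) did not pass. Olanzapine male 27, at 13.87, stood far above its group, and without it the olanzapine difference was -2.004 (adjusted p = 0.498). Asns, Xbp1 and Herpud1 had standard errors of 0.55 to 0.70, and their differences lay between -0.98 and 0.23.

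Atf3 was higher at the median with both drugs in the pancreas. It was 7.49, 7.98 and 8.40 with risperidone, 6.95, 8.15 and 8.67 with olanzapine, and 6.93, 7.54 and 7.99 with vehicle. With risperidone 4 and with olanzapine 5 of 8 mice lay above every vehicle mouse, but the differences of 0.42 ± 0.24 (adjusted p = 0.999) and 0.44 ± 0.24 (adjusted p = 0.635) did not pass. Sesn2 (chr4:132492804-132510456) differed by 0.48 ± 0.24 with olanzapine (adjusted p = 0.618).

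Of the pancreas lists, 3 of 16 chaperones were above 0 with olanzapine, with a median of -0.58, and 1 of 12 aminoacyl-tRNA synthetases, with a median of -0.43, against 0.06 over all genes. None of them passed. The genes with the lowest p were the translation repressor Eif4ebp1 (-1.10), Dnajb9 (-2.21) and the glycine tRNA synthetase Gars (-1.14) with olanzapine, and the degradation factor Derl2 (0.76), the co-chaperone Bag3 (0.64) and the cysteine-making enzyme Cth (1.18) with risperidone. Beside these values, 6 islet markers all lay below 0, with medians of -0.72 for risperidone and -1.12 for olanzapine, and their part was not tested.

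Outside the striatum the drugs did not differ from each other in any of the 10 genes at the adjusted threshold (called shares of all genes were 0.0564% in liver and 0% in pancreas and adipose tissue). Beside Trib3, liver Atf3 had an unadjusted p under 0.05, at -0.49 (adjusted p = 0.527), in olanzapine minus risperidone.

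Males and females differed in some of the 10 genes. In the liver 3 of the 10 passed, in a contrast that called 6.23% of all genes. Atf3 fell in males to 5.77 ± 0.48, against 6.45 ± 0.41 in females (SD, n = 12 each), a difference of -0.68 ± 0.16 (adjusted p = 0.00679). Asns rose in males, with 7.93 ± 0.47 in males and 7.40 ± 0.28 in females (0.53 ± 0.15, adjusted p = 0.036), and so did Xbp1 (chr11:5520641-5525993), with 14.3 ± 0.68 and 13.5 ± 0.59 (0.79 ± 0.24, adjusted p = 0.0458). The sexes overlapped in all 3 genes. Asns stayed called in 11 and Xbp1 in 7 of 24 fits that left out a mouse, with adjusted p between 0.0103 and 0.0728 and between 0.0126 and 0.0845. Xbp1 also lost its call on all 24 mice with a variance trend and robust fit (0.79, adjusted p = 0.072).

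In adipose tissue 1 of the 10 passed between the sexes, where 4.6% of all genes were called. Asns was 9.33, 10.50 and 11.39 in males (lowest, median and highest) against 10.69, 11.34 and 11.79 in females, a difference of -0.95 ± 0.19 (adjusted p = 0.00306). The 4 lowest males were mice with epithelial markers, and without the 5 mice the difference was -0.55 ± 0.17 (adjusted p = 0.0792). The direction in fat was thus the reverse of that in liver, where Asns was higher in males, and the difference between tissues was not tested. In striatum and pancreas 0 of the 10 passed (0.39% and 0.108% of all genes called), with Xbp1 in the striatum nearest at -0.31 (adjusted p = 0.401).

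Of the 93 list genes, 6 passed between the sexes in the liver, or 6.45% against 6.23% of all genes, a share near the background. They were the sensor kinase Eif2ak4 (-0.51), the eIF2B subunits Eif2b3 (0.69) and Eif2b4 (0.48), the lipoprotein receptor Vldlr (-0.71), the amino acid transporter chain Slc3a2 (-0.65) and the methionine tRNA synthetase Mars1 (0.76, adjusted p = 1.1e-05). In fat 4 of 93 passed, or 4.3% against 4.6% of all genes, namely the serine synthesis enzyme Phgdh (1.05, adjusted p = 0.0192), the degradation factors Derl1 (-1.92, adjusted p = 6.7e-05) and Derl2 (-0.64, adjusted p = 0.0223), and the mitochondrial chaperonin Hspe1 (-1.04, adjusted p = 0.000132). All 4 also passed without the 5 mice (Phgdh 1.16, Derl1 -1.85, Derl2 -0.70 and Hspe1 -1.06), where Dnajb9 (-1.39), Hsp90aa1 (-1.46) and Mars1 (-1.52) passed besides. The 4.6% belongs to the fit on all mice. The share of all genes called without the 5 mice is not given here, so the further calls have no background beside them.

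Whether a drug difference was unlike in males and females was tested by interaction, and 0 of the 10 passed in any tissue. The share of all genes called was 0.0513% for risperidone in fat and 0% elsewhere. In fat with risperidone, Hspa5 (2.25, adjusted p = 0.300), Herpud1 (1.49), Ddit3 (0.99) and Asns (-0.92) had an unadjusted p under 0.05, where 13.2% of all genes did. Without the 5 mice the Hspa5 value was -0.27, with risperidone male 24 as the only male of its group left.

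Whether the target genes followed Atf4 was read from correlations over the 24 mice of each tissue, with 9 genes in 4 tissues, a permutation test and adjustment over 36 pairs. In the liver 0 of 9 passed. Xbp1 came nearest (r = 0.41, adjusted p = 0.204, rho = 0.28), followed by Hspa5 (r = 0.32, adjusted p = 0.345). Among the direct targets, r lay near 0 for Ddit3 (0.16), Asns (0.09), Chac1 (0.05), Sesn2 (0.02) and Trib3 (-0.02). After removal of group and sex means, r was 0.41 for Xbp1, 0.30 for Chac1, 0.14 for Asns, 0.11 for Atf3 and 0.05 for Hspa5. It was -0.07 for Trib3, -0.10 for Ddit3, -0.12 for Sesn2 and -0.28 for Herpud1. Of the 5 genes whose promoter windows hold the letters TGATGNAA, Asns, Chac1 and Herpud1 lay above vehicle in liver with both drugs (0.03, 0.18 and 0.43 with risperidone, 0.18, 0.11 and 0.02 with olanzapine). Trib3 lay below vehicle with risperidone (-0.32) and above it with olanzapine (0.15), and Atf3 the other way round (0.15 with risperidone, -0.34 with olanzapine). None of these differences passed. Within groups, Xbp1 followed Atf4 in the 8 risperidone livers (r = 0.93, adjusted p = 0.0182, exact permutation) and Ddit3 in the 12 males (r = 0.75, adjusted p = 0.0388). Each was adjusted over the 36 pairs of its own treatment or sex alone, not across the treatments and sexes looked at.

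In adipose tissue 3 of 9 passed over all mice. Ddit3 (r = 0.79, rho = 0.78, adjusted p = 0.00018) and Herpud1 (r = 0.77, rho = 0.74, adjusted p = 0.00018) were higher where Atf4 was higher (p = 1e-05 in each, the smallest 100000 permutations can give), and r was 0.70 and 0.82 without the 2 mice farthest from the Atf4 median. Atf3 ran the other way (r = -0.55, rho = -0.56, permutation p = 0.00602, adjusted p = 0.0361, and -0.49 without those 2, which did not pass, with an adjusted p of 0.0949). Hspa5 had r = 0.51 (adjusted p = 0.0534), and Asns had r = -0.18. Without the 5 mice with epithelial markers the Atf3 value was r = -0.19 (adjusted p = 0.677), and with each array centred on its median it was -0.43 (adjusted p = 0.123). Without the 5 mice with epithelial markers, 4 of 9 passed over 19 mice: Herpud1 (r = 0.80, rho = 0.75, adjusted p = 0.0009), Xbp1 (r = 0.76, rho = 0.76, adjusted p = 0.0018), Asns (r = 0.72, rho = 0.74, adjusted p = 0.00324) and Ddit3 (r = 0.71, rho = 0.75, adjusted p = 0.00354).

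A strong correlation with Atf4 was common in fat. Over all mice 34.5% of all genes had an r beyond 0.6 in either direction, and 41.1% did without the 5 mice, against 0.267% in liver. In the 19 mice 12.5% of all genes had an r with Atf4 as high as that of Ddit3, 12.1% as high as Asns, 8.61% as high as Xbp1 and 5.49% as high as Herpud1. In the same mice, after removal of group and sex means, Atf4 followed the mean of the adipocyte markers (r = 0.92, adjusted p = 0.0002, permutation test), as did Herpud1 (r = 0.89). Over all 24 mice, likewise after removal of these means, r was -0.19 for Atf4 and -0.19 for Herpud1, and neither passed (adjusted p = 0.524 each, permutation test). The part of the adipocyte share was not tested.

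**Figure D5:**
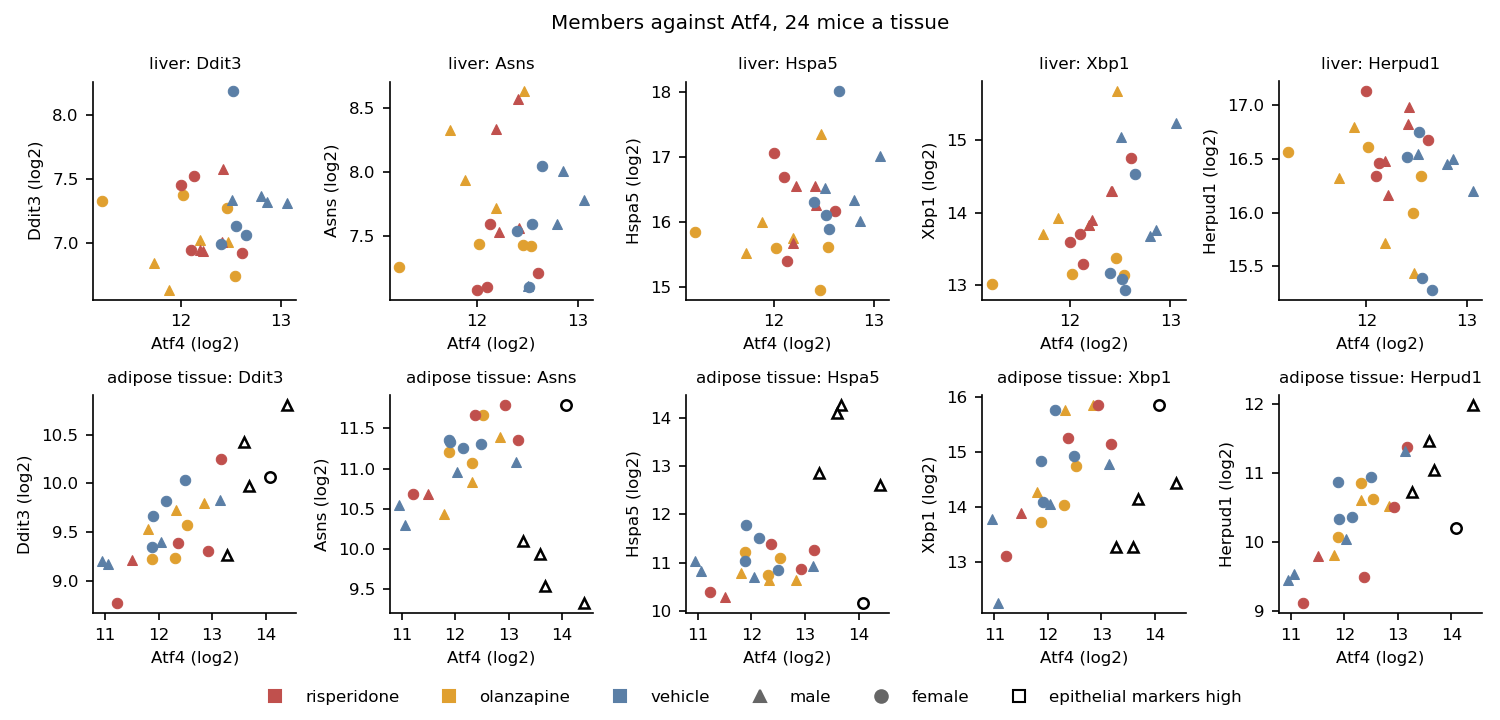
Log2 value of 5 genes (vertical axes) against Atf4 (horizontal axes) in liver (top) and adipose tissue (bottom), with 1 symbol per mouse, coloured by risperidone, olanzapine and vehicle, triangles for males and circles for females. Open symbols are the 5 mice with high epithelial markers. In adipose tissue Ddit3 and Herpud1 rise with Atf4 (r = 0.79 and 0.77), while in liver no panel has an r above 0.41.

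In the pancreas Asns (r = 0.72, adjusted p = 0.0006), Herpud1 (r = 0.72, adjusted p = 0.00162) and Xbp1 (r = 0.61, adjusted p = 0.0102) followed Atf4, with r of 0.70, 0.63 and 0.64 without the 2 mice farthest from the median, and 0 of 9 genes did in the striatum, where Asns had the highest r at 0.35 (adjusted p = 0.276). In the pancreas 0.508%, 0.574% and 2.41% of all genes had an r as high. Asns also followed the acinar markers there (r = 0.77 after removal of group and sex means, adjusted p = 0.0004). On the same residuals Atf4 itself had r = 0.52 with these markers (adjusted p = 0.131) and passed by rank (rho = 0.58, adjusted p = 0.0455, permutation test). The part of the acinar share in the correlations with Atf4 was not tested.

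The genes most like Atf4 over 24 mice, by the correlation of residuals after group and sex means were removed, were Foxk2 (0.75), Fbxl12 (0.75), Map3k1 (0.72), Pigz (0.72) and Tmem65 (0.71) in the liver. In adipose tissue they were Mospd2 (0.95), Brap (0.95), Sgms1 (0.94), Edem2 (0.94) and Ppp5c (0.94). None of the 10 genes was among them. After the same removal of group and sex means, a mouse's liver value did not predict its fat value for any of the 10 genes. The largest correlation was that of Sesn2 (r = -0.48, adjusted p = 0.136 over 10 pairs, permutation test), with -0.01 for Atf4. Without the 2 farthest mice the Sesn2 value was -0.12, and Sesn2 was dim in both tissues.

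Cell type markers moved with several of the 10 genes, by correlations after removal of group and sex means. In adipose tissue 14 of 40 pairs of a gene and a marker list passed, among them Asns with adipocytes (r = 0.81), Hspa5 with adipocytes (r = -0.79) and with the epithelium (r = 0.78), and Atf4 with leukocytes (r = -0.81). Over the 19 mice without high epithelial markers the values were 0.68, 0.07, -0.17 and -0.58 in the same order. Neither Hspa5 pair passed there (adjusted p = 0.848 and 0.613, permutation test). The 5 mice had been left out by the epithelium mean itself, which ran only between 6.66 and 7.35 in the 19. The epithelium pair therefore could not be judged there. In the striatum Herpud1 passed with projection neurons (r = -0.68, adjusted p = 0.0096, rho = -0.71, and -0.56 without the 2 farthest mice). In the liver Chac1 and Xbp1 each had r = 0.69 with leukocyte markers (adjusted p = 0.00405), but neither passed by rank (rho = 0.59 and 0.47). Their part in the differences between groups was not tested.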

How the data were processed

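The values are the authors' deposited log2 values, made by robust multichip analysis (RMA: background correction, quantile normalization and 1 summary per transcript cluster) with Affymetrix Expression Console 1.4, according to the submitters' processing notes. RMA shrinks differences in dim genes, quantile normalization forces equal distributions, and values of different genes cannot be set against each other. Whether tissues were normalized together, and the genome build, are not given in the sources used here. Striatum and liver RNA was labelled with the WT PLUS kit, pancreas and adipose RNA with the Pico kit, and tissues were tested separately.

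Of 22206 clusters, 19572 with 1 gene symbol were kept and averaged per gene (55 genes). Labels call the mice separate animals. Precision is limited by how many arrays each group has. Tests used limma 3.58.1 in R 4.3.3 with treatment and sex as terms, Benjamini-Hochberg over 19505 genes and a threshold of 0.05, and were tested on simulated data. Correlations used 100000 permutations (Python 3.11.15, SciPy 1.17.1), all pairings in groups of 8. The 10 genes and all lists were chosen with earlier results of these data known. Named besides the 10 were list genes called (up to 5 a list), the 3 lowest p per tissue and drug, and the 5 genes most like Atf4. Alternatives were the variance model, scaling, array weights, a filter on dim genes, terms of the fit, single sexes or treatments and each mouse left out. Leaving out the 5 adipose mice, and all alternatives for sex and for olanzapine minus risperidone, were added after seeing the data.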

Additional observations from a re-analysis of the deposited data

Results flagged for a closer look

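In 16 of 120 groups of 8 mice tested for a distant value, the highest or lowest mouse was separated from the rest by more than Dixon's critical share of the group's range, which chance meets in about 1 group in 20. In the striatum olanzapine male 9 was lowest for Asns (13.9), Chac1 (5.4) and Hspa5 (13.75), olanzapine male 25 lowest for Atf3 (7.98) and olanzapine male 26 highest for Sesn2 (4.98). Risperidone female 23 was highest for Hspa5 (15.34), and vehicle male 21 lowest for Xbp1 (11.71). In the liver olanzapine male 9 was highest for Hspa5 (17.35) and Xbp1 (15.68), vehicle female 20 highest for Ddit3 (8.18) and vehicle male 21 lowest for Chac1 (5.24). In the pancreas olanzapine male 27 was highest for Atf4 (13.87) and Chac1 (8.24). In adipose tissue olanzapine male 9, with high epithelial markers, was highest for Hspa5 (12.85) and Sesn2 (5.08), and risperidone female 5 was highest for Trib3 (7.45).

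For 2 values all mice of one sex moved against all mice of the other, each relative to its vehicle mean, and the flag itself rests on no test. The drug difference in males minus that in females was -0.77 for Trib3 in adipose tissue with risperidone and 0.72 for Asns in liver with olanzapine. The interaction test gave adjusted p of 0.384 and 0.928, so neither passed.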

How the results depend on the processing

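No paired analysis was possible because the treatment groups share fewer than 2 replicate numbers. Of 1726 alternative values, 1617 kept their direction and their side of the threshold. In every fit 0 of the 10 genes passed against vehicle.

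For olanzapine minus risperidone in the striatum the count of the 10 genes called was 0, and 1 with array weights, with a range of 0 to 1 when a mouse was left out. For sex the liver count of 3 ranged from 1 to 3 with a mouse left out and was 2, without Xbp1, with a variance trend and robust fit, and the adipose count of 1 was 0 without the 5 mice with epithelial markers. Targets correlated with Atf4 numbered 0 in liver, but 1 in risperidone mice alone and 1 in males alone. In the pancreas they numbered 3, but 0 in each treatment alone and 1 in females alone. That 1 was another gene, since Asns (r = 0.43), Xbp1 (r = 0.30) and Herpud1 (r = 0.66) did not pass in females. Herpud1 did not pass in males alone either (r = 0.70, adjusted p = 0.0533, permutation test). In the 8 risperidone, 8 olanzapine and 8 vehicle mice alone, r in the pancreas was 0.85, 0.68 and 0.81 for Asns. It was 0.42, 0.68 and 0.69 for Xbp1 and 0.79, 0.65 and 0.695 for Herpud1. In adipose tissue the correlated targets numbered 3, but 0 in olanzapine mice, vehicle mice or females alone. They numbered 2 with residuals, 2 in risperidone mice alone and 4 without the 5 mice. In olanzapine mice, vehicle mice and females alone, r was 0.57, 0.83 and 0.70 for Ddit3. It was 0.23, 0.91 and 0.40 for Herpud1 and -0.50, -0.04 and -0.34 for Atf3. Pairs of a gene and a marker list that passed numbered 2 in liver and 0 by rank, 1 in pancreas and 3 by rank, and 14 in adipose tissue, 9 by rank and 8 without the 5 mice. The adipose interaction of Hspa5 with risperidone and sex was 2.25, and reversed to -0.27 without the 5 mice. List genes called numbered 6 for olanzapine minus risperidone in the striatum (11 with dim genes dropped, 16 with array weights, 2 to 12 with a mouse left out), 6 for sex in liver (5 to 10), and 4 for sex in adipose tissue (9 with array weights, 7 without the 5 mice, 4 to 8). For olanzapine against vehicle in the striatum they numbered 0 (0 to 1). The cause was not tested. The share of all genes called under the alternatives of this section is not given here, so the counts have no background beside them.

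The spread among pancreas samples left a standard error of 0.99 for Atf4, against 0.16 in liver. The pancreas Atf4 differences of -1.39 (olanzapine minus vehicle) and -1.85 (olanzapine minus risperidone) did not pass, and risperidone minus vehicle was 0.46.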
